A study of Homo sapiens with 12 samples.

Results

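The epithelial identity genes are 10 genes that mark the epithelial state of a cell. They are the adhesion molecule EPCAM, the claudins CLDN4 and CLDN7, the keratins KRT8, KRT18 and KRT19, the transcription factors ELF3, GRHL2 and OVOL1, and the splicing regulator ESRP1. They were taken by name from the 63677 Ensembl identifiers of the count tables, with symbols from GENCODE release 44, and were followed across 12 RNA-seq libraries of MiaPaca2, an established human cell line from a pancreatic ductal adenocarcinoma (PDAC). The libraries form 4 groups of 3. Unprimed cells received DMSO (Control) or 1 µM CPT, the Vitamin D analog calcipotriol. Epigenetically primed cells received 2 mM GTA and 1 µM 5-Aza, without CPT (GTA+5-Aza) or with 1 µM CPT (CPT+GTA+5-Aza). GTA is glyceryl triacetate, a source of acetate for histone acetylation, and 5-Aza is 5-Aza-2′-deoxycytidine, an inhibitor of DNA methyltransferases. All cells were wild type by label and were treated for 24 h, and the 4 groups therefore describe 1 cell line at 1 time point. The labels do not say whether replicates came from separate cultures, so p-values measure the spread between these libraries only.

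Epithelial cells are held together by tight junctions, adherens junctions and desmosomes, and are stiffened from within by keratin filaments that assemble from pairs of a type II keratin such as KRT8 and a type I keratin such as KRT18 or KRT19. Transcription factors of the grainyhead, OVO-like and ETS families maintain this programme, ESRP1 keeps the epithelial splice forms of its target transcripts, and factors such as ZEB1 and SNAI1 repress it during epithelial to mesenchymal transition. PDAC has duct-like epithelial features, and PDAC cell lines differ widely in how much of the programme they retain.

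Between 16162490 and 21224665 reads per library were assigned to genes. Of the 10 genes, 5 passed the filter on low counts and were tested among 17123 genes, namely CLDN4, KRT8, KRT18, KRT19 and ELF3. The other 5 (EPCAM, CLDN7, GRHL2, ESRP1 and OVOL1) had too few reads. A gene was called where edgeR's quasi-likelihood test gave a Benjamini-Hochberg adjusted p under 0.05, and its level in a library is given in CPM, its counts relative to the TMM-scaled size of that library. The libraries also differed in how their values followed the GC content of the genes. Across genes, the Spearman correlation of a library's deviation from the mean with gene GC content was -0.507 to 0.295 in the 6 unprimed libraries and -0.137 to 0.597 in the 6 primed ones. Transcripts of CLDN4, KRT8, KRT18 and KRT19 held 58.2% to 61.8% GC, and that of ELF3 held 52.6%. The calls on these genes are therefore given also after the GC trend of each library was removed, a step chosen after the values had been seen.

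The 10 genes spanned the whole range of expression in MiaPaca2 cells. Per kilobase of the reference transcript (the MANE Select transcript), KRT8 stood at 903 CPM per kb ± 56.4 (SD over the 12 libraries), which ranked it 47 of 18726 protein-coding genes. KRT18, its filament partner, followed at 553 ± 45.8 and rank 82. KRT19, the smallest keratin and a marker of ducts, reached 24.6 ± 2.95 CPM per kb. CLDN4, a claudin of the tight junction, had 12.1 ± 2.29 CPM per kb, and ELF3, an ETS factor of epithelial cells, 0.954 ± 0.485. Ranges of neighbours in this order did not overlap down to ELF3, since the 12 libraries held KRT8 at 790 to 975, KRT18 at 456 to 604, KRT19 at 20.4 to 29.8, CLDN4 at 8.92 to 16.3 and ELF3 at 0.123 to 1.6 CPM per kb. Below ELF3 the ranges overlapped. CLDN7 averaged 0.118, OVOL1 0.0429, GRHL2 0.00586, EPCAM 0.00541 and ESRP1 0.00271 CPM per kb.

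**Figure D1:**
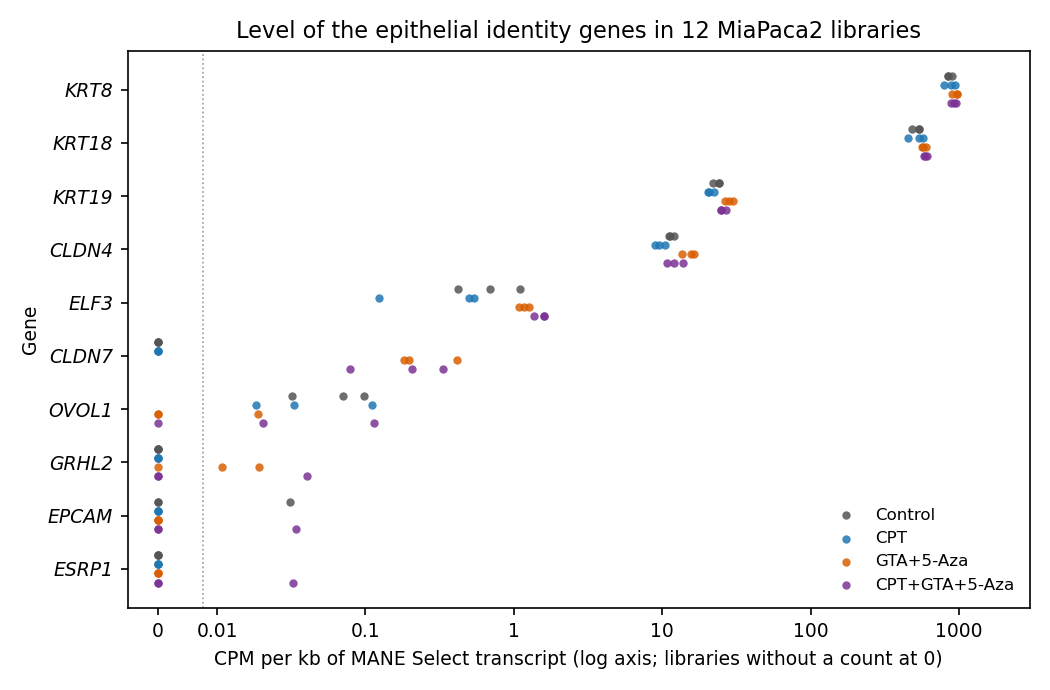
Level of each epithelial identity gene in each library, as CPM per kilobase of the MANE Select transcript on a log axis, with 1 point per library, colored by group, and libraries without a count placed at 0 left of the dotted line. KRT8 and KRT18 lie between 456 and 975, while EPCAM, GRHL2 and ESRP1 have no count in 9 or more of the 12 libraries.

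The ductal markers in these cells were uneven in level. Of the 7, SOX9, a ductal transcription factor, had 161 ± 9.42 CPM in unprimed and 221 ± 6.79 CPM in primed libraries (SD, n = 6), whereas CFTR had 0 counts in all 12 libraries, CDH1 (E-cadherin, the core of adherens junctions) had 2 counts summed over the 6 unprimed libraries and 10 over the 6 primed ones, and EPCAM had 1 and 1. The summed level of the ductal markers was 182 to 206 CPM in the unprimed libraries and 253 to 272 CPM in the primed ones. Most of each sum was SOX9, with KRT19 next (30.9 and 37.4 CPM on average in unprimed and primed libraries). MUC1 had 1.74 and 1.93 CPM, and KRT7 0.562 and 2 CPM. Fibroblast markers, of which LUM had 0 counts, summed to 780 to 932 CPM in unprimed and 916 to 1069 CPM in primed libraries. Most of these sums was COL1A2 (769 and 863 CPM on average in unprimed and primed libraries) and COL3A1 (91.3 and 110 CPM). COL1A1 had 0.13 and 1.57 CPM, PDGFRB 0.15 and 0.272 CPM, and DCN 3 and 1 counts in all. Markers of leukocytes (at most 1.69 CPM), endothelium (at most 0.624 CPM, with PECAM1, CDH5, KDR and TEK at 0) and acinar cells (at most 0.44 CPM, with PRSS1, CPA1, CELA3A, PNLIP and AMY2A at 0) were near 0. The part of the higher levels of these collagen genes in the results below was not tested. In bulk RNA a change in the share of cells that express a gene cannot be told apart from a change in RNA per cell.

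The study asked how priming shifts the expression state of PDAC cells. Priming was compared in cells without CPT (GTA+5-Aza against Control) and in cells with CPT (CPT+GTA+5-Aza against CPT), and as the mean of both comparisons. In the mean, edgeR called all 5 tested genes upregulated, where 16.8% of all tested genes were called upregulated and 14% downregulated. After removal of the GC trend it called 2 of the 5, ELF3 and CLDN4, where 15.3% of all tested genes were called upregulated and 18% downregulated. Separately, 2 of the 5 genes were called upregulated in GTA+5-Aza against Control (CLDN4 and KRT19), beside 9.95% of all tested genes, and 3 in CPT+GTA+5-Aza against CPT (KRT18, KRT19 and ELF3), beside 9.57%. CPT+GTA+5-Aza against Control gave 2 (KRT18 and ELF3), beside 9.62%. edgeR called none of the 5 downregulated in any of these comparisons. After removal of the GC trend the 3 counts were 0, 1 and 1, and the gene left in the latter comparisons was ELF3. The shares of all genes called upregulated and downregulated were then 8.85% and 11.1% in GTA+5-Aza against Control, 9.36% and 10.9% in CPT+GTA+5-Aza against CPT, and 8.98% and 10.3% in CPT+GTA+5-Aza against Control, as against 7.53%, 7.39% and 7.16% downregulated before removal. By the study's thresholds, a fold change over 1.5 and P under 0.05 without adjustment, 0 of the 5 genes were upregulated in GTA+5-Aza against Control (6.82% of all tested genes), and ELF3 was in CPT+GTA+5-Aza against CPT (6.93%), in CPT+GTA+5-Aza against Control (6.48%) and in the mean (7.81%). The comparisons of GTA+5-Aza and CPT+GTA+5-Aza with Control share the Control libraries.

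Libraries of the 2 groups did not overlap, with the primed group higher, for 5 of the 10 genes in GTA+5-Aza against Control. These were CLDN4, CLDN7, KRT8, KRT18 and KRT19, beside 18.1% of tested genes. The same held for 5 in CPT+GTA+5-Aza against CPT (CLDN4, CLDN7, KRT18, KRT19 and ELF3, beside 16.4%). It held for 4 in CPT+GTA+5-Aza against Control (CLDN7, KRT18, KRT19 and ELF3, beside 18.8%). These shares do not cover genes below the filter such as CLDN7. OVOL1, also below the filter, was lower without overlap in GTA+5-Aza against Control.

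CLDN7, a claudin of the tight junction and of the lateral membrane that binds EPCAM, was the gene of the 10 with no read in any unprimed library and reads in every primed one. Control replicates 1 to 3 and CPT replicates 1 to 3 each had 0 counts. The GTA+5-Aza libraries had 12, 6 and 5 counts, and the CPT+GTA+5-Aza libraries had 6, 9 and 2. Every primed library lay above every unprimed one, although the counts were small. The 40 counts of the primed libraries correspond to 0.366 CPM. Counts of 0 in 6 unprimed libraries allow up to 3 counts in all, or 0.0256 CPM. The observed primed level of CLDN7 was 14.3-fold this limit. The limit covers counting error in the unprimed libraries only, so counting error in the 40 primed counts and the spread between libraries are left out. An exact two-sided permutation test of the 6 primed against the 6 unprimed libraries gave an unadjusted p = 0.00216, the smallest that the 924 arrangements allow. Any gene with full separation of these libraries would give this p, so it restates the separation above and adds nothing to it. Adjusted over the 5 genes below the filter, this permutation p was 0.0108. In a fit without the filter, over 32000 genes, edgeR gave CLDN7 an adjusted p of 0.0134 for GTA+5-Aza against Control, 0.0276 for CPT+GTA+5-Aza against CPT and 9.24e-05 for their mean. Within primed cells, GTA+5-Aza and CPT+GTA+5-Aza libraries overlapped, at 0.282 to 0.641 CPM and 0.122 to 0.511 CPM.

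A pattern like that of CLDN7, with no count in any unprimed library and a count in every primed one, was found for 51 of the 32000 genes with a count (0.159%), and the opposite pattern for 2 genes (0.00625%). Of the 14877 genes with a count that did not pass the filter, 27 showed it (0.181%). By its 40 counts CLDN7 ranked 28 among these 51 genes, whose median was 48 and maximum 611. Of the further epithelial genes listed below, the transcription factors FOXA2 and TFAP2C were among them, FOXA2 being named after its values had been seen. Exons of CLDN7 overlap those of ELP5 on the opposite strand, a gene with 911 to 1340 counts per library. The strand setting of the counting is not given in the sources used here, so reads of CLDN7 and ELP5 cannot be told apart. CLDN7 exons also overlap those of a protein-coding gene without a symbol on the same strand, which had 0 counts in every library. How reads that fall on exons of both were counted is not given either. ELP5 itself did not pass the test (log2 fold change 0.09 ± 0.0646 SE in the mean of both priming comparisons, edgeR adjusted p = 0.319).

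CLDN7 lies on chromosome 17 from 7259903 to 7263983 on the minus strand (GRCh38, GENCODE release 44), CLDN4 on chromosome 7 from 73799542 to 73832690 on the plus strand, and ELF3 on chromosome 1 from 202007945 to 202017183 on the plus strand. Because 5-Aza acts on methylation at CG dinucleotides, the 250 bases before the start site of these genes are shown from RefSeq (GRCh38.p14) with each CG in capitals, at the start of the MANE Select transcript. The table of RefSeq windows used here held 4 of the 10 genes. Their coordinates are chr17:7262479-7262728 for CLDN7, chr7:73830746-73830995 for CLDN4 and chr1:202010337-202010586 for ELF3, and each is written in the direction of transcription.
CLDN7: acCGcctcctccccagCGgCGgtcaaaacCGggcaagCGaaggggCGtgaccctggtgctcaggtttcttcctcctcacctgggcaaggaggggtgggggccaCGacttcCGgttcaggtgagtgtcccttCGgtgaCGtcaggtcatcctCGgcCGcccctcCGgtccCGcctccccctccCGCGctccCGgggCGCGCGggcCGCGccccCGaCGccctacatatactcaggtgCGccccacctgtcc
CLDN4: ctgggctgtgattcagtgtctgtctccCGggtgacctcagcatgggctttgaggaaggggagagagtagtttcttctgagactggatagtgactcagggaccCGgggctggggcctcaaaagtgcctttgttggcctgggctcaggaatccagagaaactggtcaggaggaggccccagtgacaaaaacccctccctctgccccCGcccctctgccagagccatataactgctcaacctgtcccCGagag
ELF3: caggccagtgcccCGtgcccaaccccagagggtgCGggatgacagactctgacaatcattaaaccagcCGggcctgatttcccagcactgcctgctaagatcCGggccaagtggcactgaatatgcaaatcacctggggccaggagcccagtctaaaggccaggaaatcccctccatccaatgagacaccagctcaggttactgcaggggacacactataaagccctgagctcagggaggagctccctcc

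The window of CLDN7 shown holds 25 CG dinucleotides, more than 78.4% of the 35116 RefSeq promoter windows of this length, whose median was 11 with quartiles of 3 and 23. Those of CLDN4 and ELF3 hold 4 each, more than 29.3% of windows. A second window of CLDN7, at a start site 735 bases upstream, holds 9 (more than 45.9%), and the window of KRT8, at a start site 21393 bases from that of the MANE Select transcript, holds 1 (more than 6.06%). The E-box CAGGTG, the letters bound by ZEB and SNAI repressors, was searched on both strands. It occurs 4 times in the window of CLDN7 shown, at 174, 135, 20 and 9 bases before the start, while 17.5% of windows hold it at all and 0.464% hold 3 or more. ELF3 has 1 match, at 120 bases before the start, and CLDN4, the second window of CLDN7 and KRT8 have 0. These are matches of letters, and no binding or methylation was measured in these libraries.

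CLDN4 seals the tight junction against cations and was well expressed in all libraries. It had 19.1, 18.7 and 20.4 CPM in Control and 26.3, 23.1 and 27.6 CPM in GTA+5-Aza. With CPT it had 15.1, 17.7 and 16.2 CPM in unprimed cells and 23.3, 20.4 and 18.2 CPM in primed cells. In both pairs every primed library was above every unprimed one, though over all 6 against 6 libraries the ranges overlapped, since Control replicate 3 at 20.4 CPM exceeded a primed library with CPT at 18.2 CPM. CLDN4 rose 1.29-fold in the mean of both comparisons (log2 0.37 ± 0.0859 SE, edgeR adjusted p = 0.00141). Without CPT the log2 fold change was 0.40 ± 0.12 (edgeR adjusted p = 0.0195), and with CPT it was 0.34 ± 0.123, which did not pass (edgeR adjusted p = 0.0558). After removal of the GC trend the mean was 0.22 ± 0.0813 (edgeR adjusted p = 0.0349) and neither single comparison was called, with edgeR adjusted p of 0.142 and 0.247. The call without CPT was also lost without Control replicate 1 or 2 or without GTA+5-Aza replicate 1 or 3, with log2 fold changes of 0.35 to 0.39 and edgeR adjusted p of 0.0636 to 0.1. With CPT the call was gained without CPT replicate 2 (0.40, edgeR adjusted p = 0.0341) or CPT+GTA+5-Aza replicate 3 (0.43, edgeR adjusted p = 0.0373), with upper-quartile scaling or library size alone (0.35 and 0.38, edgeR adjusted p = 0.0489 and 0.0326), and in the likelihood ratio test (0.34, adjusted p = 0.045).

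**Figure D2:**
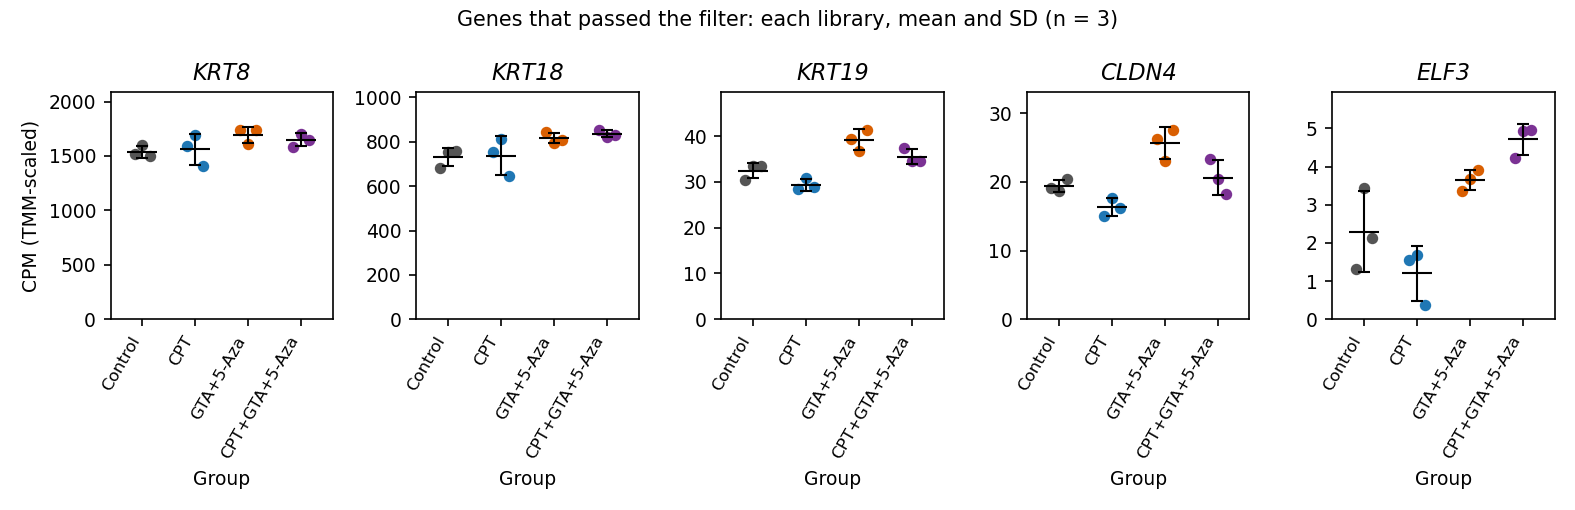
CPM of the 5 tested genes in each library, with 1 point per library, the group mean as a horizontal line and the SD (n = 3) as error bars, on axes that start at 0. CLDN4 and KRT19 are highest in GTA+5-Aza, at 25.7 and 39.2 CPM on average, ELF3 is highest in CPT+GTA+5-Aza at 4.71 CPM, and KRT8 and KRT18 differ little between groups.

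KRT8 and KRT18 were the most abundant of the 10 genes and moved least. KRT8 had 1516, 1602 and 1501 CPM in Control, 1589, 1690 and 1409 in CPT, 1740, 1608 and 1735 in GTA+5-Aza, and 1587, 1705 and 1651 in CPT+GTA+5-Aza. The 3 GTA+5-Aza libraries lay above the 3 Control libraries, while the CPT and CPT+GTA+5-Aza libraries overlapped. The mean of both priming comparisons was 1.08-fold (log2 0.11 ± 0.0381 SE, edgeR adjusted p = 0.0327), and it was -0.03 ± 0.0256 after removal of the GC trend (edgeR adjusted p = 0.489). That call rested on several libraries. It was lost without any 1 of Control replicates 1 and 3, CPT replicates 1 and 3, GTA+5-Aza replicates 1 and 3 and CPT+GTA+5-Aza replicates 2 and 3, with edgeR adjusted p of 0.0551 to 0.105, and the log2 fold change was lowest without CPT replicate 3, at 0.07. DESeq2 (log2 0.10, adjusted p = 0.0617) and the likelihood ratio test (adjusted p = 0.0713) also ended it.

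KRT18 had 684, 755 and 757 CPM in Control and 797 to 844 CPM in GTA+5-Aza. In CPT it had 756, 814 and 644 CPM, and in CPT+GTA+5-Aza 854, 824 and 833 CPM. The primed libraries were above the unprimed ones in both pairs, but CPT replicate 2 at 814 CPM exceeded the lowest GTA+5-Aza libraries. KRT18 was 1.12-fold higher in the mean of both comparisons (log2 0.17 ± 0.0438 SE, edgeR adjusted p = 0.00374), and 0.05 ± 0.0332 on the log2 scale after removal of the GC trend (edgeR adjusted p = 0.231). With CPT, the log2 fold change of 0.18 ± 0.062 passed (edgeR adjusted p = 0.0436), and it became 0.07 after removal of the GC trend (edgeR adjusted p = 0.301). Without CPT replicate 3 it was 0.09 (edgeR adjusted p = 0.298), and leaving out Control replicate 3, CPT replicate 1, GTA+5-Aza replicate 1 or any 1 of the 3 CPT+GTA+5-Aza libraries also ended the call, at edgeR adjusted p of 0.055 to 0.138, as did DESeq2 (adjusted p = 0.0526), the likelihood ratio test (adjusted p = 0.0633) and a fit of the 2 groups alone (edgeR adjusted p = 0.0825). Against Control, the log2 fold change of KRT18 in CPT+GTA+5-Aza was 0.19 ± 0.0619 (edgeR adjusted p = 0.0307), which was no longer called without Control replicate 1 (0.14, edgeR adjusted p = 0.197), Control replicate 3 or any 1 of the 3 CPT+GTA+5-Aza libraries, nor after removal of the GC trend (0.07, edgeR adjusted p = 0.324). Without CPT, KRT8 and KRT18 had edgeR adjusted p of 0.0793 and 0.08.

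The ratio of the pair differed little between groups. KRT8 exceeded KRT18 per kilobase by a factor of 1.67 ± 0.0907 in Control, 1.68 ± 0.0473 in CPT, 1.64 ± 0.0513 in GTA+5-Aza and 1.56 ± 0.0854 in CPT+GTA+5-Aza (SD, n = 3). The genes lie head to head on chromosome 12, KRT8 from 52897187 to 52949954 on the minus strand and KRT18 from 52948871 to 52952906 on the plus strand, and their annotated exons overlap. Processed pseudogenes could hold some of their reads. The 51 listed copies of KRT8 summed to 310 to 419 counts per library, 0.966% to 1.36% of KRT8, the 67 copies of KRT18 to 50 to 86 counts, 0.302% to 0.545% of KRT18, and the 5 copies of KRT19 to at most 1 count.

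KRT19, which lacks the tail domain of other keratins, had 30.5, 33.6 and 33.4 CPM in Control and 39.4, 36.8 and 41.4 CPM in GTA+5-Aza. With CPT it had 28.4, 30.9 and 28.9 CPM in unprimed cells and 37.5, 34.5 and 34.7 CPM in primed cells. All 6 primed libraries lay above all 6 unprimed ones, which held for 8.04% of the tested genes. KRT19 rose 1.21-fold in the mean of both comparisons (log2 0.27 ± 0.0672 SE, edgeR adjusted p = 0.0025), with log2 fold changes of 0.27 ± 0.0944 without CPT and 0.28 ± 0.0957 with CPT. After removal of the GC trend the mean was 0.11 ± 0.0624 (edgeR adjusted p = 0.171). Both single calls were near the threshold (edgeR adjusted p = 0.0467 and 0.0472), and after removal of the GC trend the values were 0.10 and 0.13 (edgeR adjusted p = 0.476 and 0.363). RLE scaling, no filter on low counts and the replicate block each ended both calls, at edgeR adjusted p of 0.0517 to 0.0985, and a fit of the 2 groups alone ended the call with CPT (edgeR adjusted p = 0.0796). Leaving out any 1 library except CPT replicate 2 or 3 or GTA+5-Aza replicate 2 ended the call without CPT, with edgeR adjusted p up to 0.196. Leaving out any 1 library except CPT replicate 2 or GTA+5-Aza replicate 2 ended the call with CPT, with edgeR adjusted p up to 0.178. The part of the GC trend in the results on CLDN4 and the keratins cannot be told apart from priming, since the trend itself was more positive in primed libraries.

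**Figure D3:**
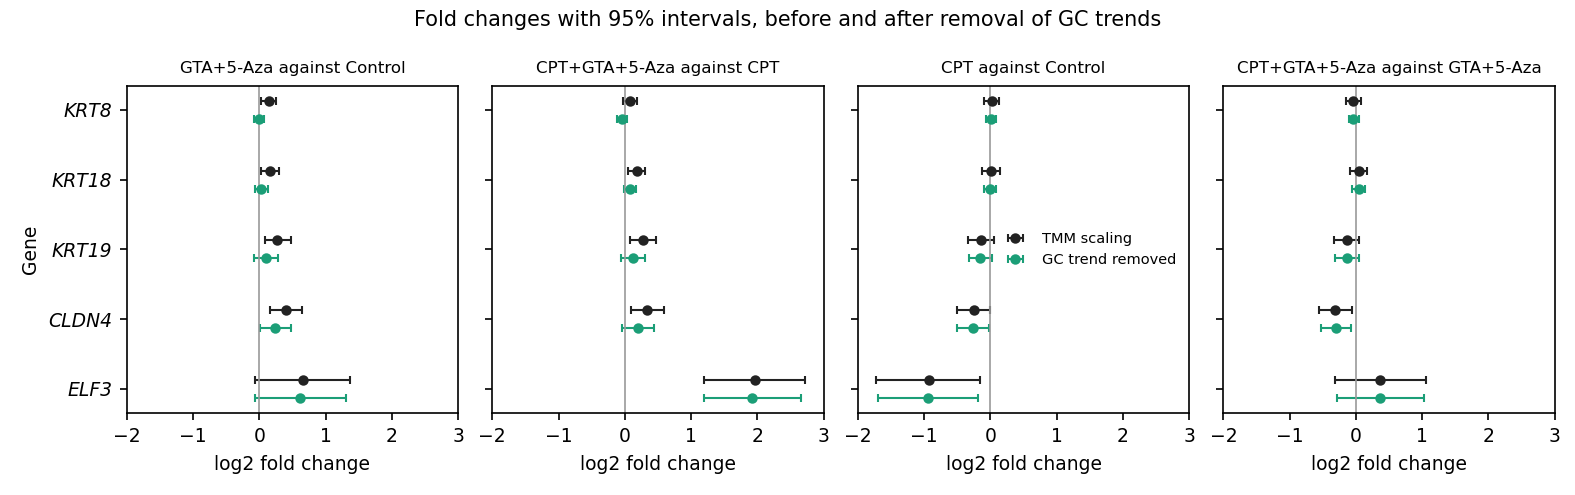
Log2 fold changes of the 5 tested genes in 4 comparisons, with 95% intervals as bars, from counts scaled by TMM and after the GC trend of each library was removed. ELF3 in CPT+GTA+5-Aza against CPT lies at 1.96 and 1.92, while the values of KRT8 and KRT18 without CPT move from 0.14 and 0.16 to 0.00 and 0.03.

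ELF3, the ETS factor that activates many epithelial genes, showed the largest fold change of the 5 tested genes. It had 1.31, 3.43 and 2.14 CPM in Control and 1.54, 1.67 and 0.382 CPM in CPT, from 7 to 72 reads per library. Primed libraries were higher and closer together, with 3.37, 3.66 and 3.9 CPM in GTA+5-Aza and 4.23, 4.94 and 4.96 CPM in CPT+GTA+5-Aza. The CPT+GTA+5-Aza libraries lay above the libraries of every other group, and the GTA+5-Aza libraries overlapped those of Control through Control replicate 2. ELF3 rose 2.48-fold in the mean of both priming comparisons (log2 1.31 ± 0.256 SE, edgeR adjusted p = 0.000259) and 1.27 ± 0.246 on the log2 scale after removal of the GC trend (edgeR adjusted p = 0.000139).

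With CPT present, ELF3 rose 3.89-fold (log2 1.96 ± 0.373 SE, 95% interval 1.19 to 2.72, edgeR adjusted p = 0.000518). Without CPT the log2 fold change was 0.66 ± 0.349 (interval -0.06 to 1.37, edgeR adjusted p = 0.216). It was 0.38 without Control replicate 1 and 1.07 without Control replicate 2, the lowest and highest of 22 alternatives, and none of them passed. The difference between these effects, the interaction of CPT and priming, was 1.30 ± 0.51 on the log2 scale with an unadjusted P of 0.0169 (1.31 after removal of the GC trend), and did not pass after adjustment (edgeR adjusted p = 1). edgeR called 0 of the 17123 genes for this interaction, with 451 genes (2.63%) at an unadjusted P under 0.05, and DESeq2 called 0 genes and the likelihood ratio test 3. By the study's thresholds ELF3 was higher in the interaction, as were 0.934% of all tested genes. Without Control replicate 2 or without CPT replicate 3 the interaction of ELF3 fell to 0.89, with unadjusted P of 0.0974 and 0.0537. Against Control, CPT+GTA+5-Aza gave a log2 fold change of 1.03 ± 0.347 (edgeR adjusted p = 0.0412), which was no longer called without Control replicate 1 (0.75, edgeR adjusted p = 0.204), Control replicate 3, GTA+5-Aza replicate 1 or 3, or any 1 of the 3 CPT+GTA+5-Aza libraries, at edgeR adjusted p of 0.0502 to 0.124 for the others. Exons of ELF3 overlap those of ELF3-AS1 on the opposite strand. ELF3-AS1 had 7 to 28 counts per library and a log2 fold change of -0.06 ± 0.425 in the mean of both comparisons. A long noncoding RNA on the same strand, whose exons also overlap those of ELF3, had at most 1 count per library.

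The transcription factors GRHL2 and OVOL1, the splicing regulator ESRP1 and the adhesion molecule EPCAM were at or near 0 in every group. GRHL2, a grainyhead-like activator of junction genes, had 0 counts in all 6 unprimed libraries, 0, 2 and 1 counts in GTA+5-Aza and 4, 0 and 0 in CPT+GTA+5-Aza (exact permutation p = 0.182 for 6 primed against 6 unprimed libraries). In the fit without the filter, over 32000 genes, edgeR gave GRHL2 an unadjusted P of 0.0339 in the mean of both priming comparisons (edgeR adjusted p = 0.151). The primed counts came from 3 of 6 libraries, and no change in GRHL2 passed after adjustment at this depth.

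OVOL1, a zinc finger repressor of mesenchymal genes, had fewer reads in primed cells. It had 4, 2 and 6 counts in Control and 0, 0 and 1 in GTA+5-Aza, which did not overlap. In this comparison 16% of the tested genes were lower without overlap, a share that does not cover genes below the filter such as OVOL1. With CPT it had 6, 2 and 1 counts in unprimed and 0, 6 and 1 counts in primed cells, and the groups overlapped. In all, 21 counts in unprimed and 8 counts in primed libraries gave an exact permutation p of 0.16 (two-sided, 6 primed against 6 unprimed libraries). ESRP1 had 2 counts in CPT+GTA+5-Aza replicate 3 and 0 in the other 11 libraries. EPCAM had 1 count in Control replicate 2, 1 in CPT+GTA+5-Aza replicate 1 and 0 elsewhere. For both genes the exact permutation p was 1, and 0 counts in a library allow up to 3 counts.

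**Figure D4:**
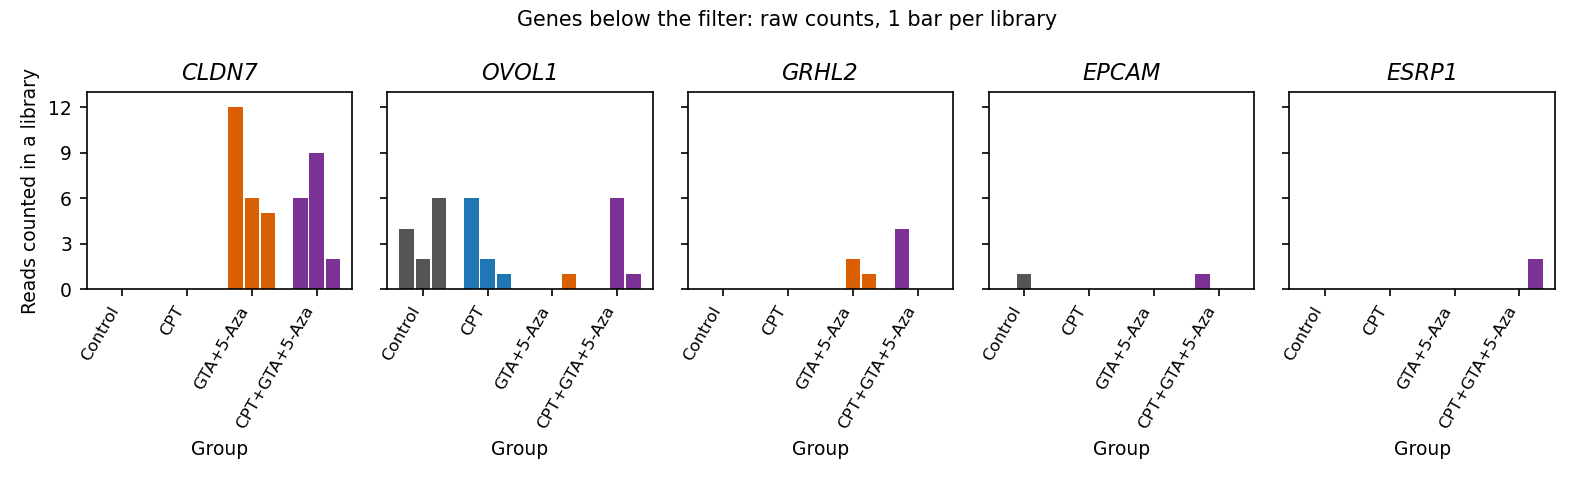
Raw read counts of the 5 genes below the filter, 1 bar per library in the order of the replicate numbers, by group. CLDN7 has 0 counts in the 6 unprimed libraries and 2 to 12 in the 6 primed ones, and no other gene of the 5 exceeds 6 counts in any library.

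CPT itself was compared in unprimed cells (CPT against Control) and in primed cells (CPT+GTA+5-Aza against GTA+5-Aza). edgeR called none of the 5 tested genes in either comparison, nor any of the 17123 genes (0%), with 733 genes (4.28%) and 464 genes (2.71%) at an unadjusted P under 0.05. DESeq2 called 4 and 0 genes and the likelihood ratio test 4 and 3, and none of the 5 was among them. After removal of the GC trend edgeR called 0.0175% of the tested genes upregulated and 0.00584% downregulated in CPT against Control, and again none of the 5. By the study's thresholds ELF3 was downregulated in CPT against Control, as were 1.14% of all tested genes. One of the 5 had an unadjusted P under 0.05 in each comparison, ELF3 in unprimed and CLDN4 in primed cells. KRT8 and KRT18 had 95% intervals of -0.09 to 0.13 and -0.12 to 0.14 in unprimed cells and of -0.15 to 0.07 and -0.09 to 0.16 in primed cells, so changes beyond these log2 values lay outside the intervals.

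CLDN4 had log2 fold changes below 0 with CPT in unprimed and in primed cells, and no test of them passed after adjustment. The 3 CPT libraries (15.1 to 17.7 CPM) lay below the 3 Control libraries (18.7 to 20.4 CPM), as 4.21% of the tested genes did, while in primed cells CPT+GTA+5-Aza (18.2 to 23.3 CPM) overlapped GTA+5-Aza (23.1 to 27.6 CPM). Its log2 fold change was -0.25 ± 0.122 SE in unprimed cells (unadjusted P = 0.0524) and -0.31 ± 0.12 in primed cells (unadjusted P = 0.0156), with an edgeR adjusted p of 1 in both. In the mean of the 2 CPT comparisons, which was added after these values had been seen and in which edgeR called 1 gene (0.00584%), CLDN4 was at -0.28 ± 0.0858 (unadjusted P = 0.00306, edgeR adjusted p = 0.855) and at -0.28 ± 0.0813 after removal of the GC trend (edgeR adjusted p = 0.358), where 0.0175% of the tested genes were called upregulated and 0.0409% downregulated. KRT19 had -0.14 ± 0.0672 in the same mean (edgeR adjusted p = 1). ELF3 had -0.93 ± 0.383 with CPT in unprimed cells (unadjusted P = 0.0221, edgeR adjusted p = 1), with CPT replicate 3 at 0.382 CPM, and 0.37 ± 0.337 in primed cells. Without CPT replicate 3 or without Control replicate 2 the former was -0.52, and it was -0.94 after removal of the GC trend. The CPT+GTA+5-Aza libraries of ELF3 were all above the GTA+5-Aza libraries, as for 4.42% of the tested genes.

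The wider epithelial programme moved in mixed directions on priming. In the lists below, counts are of tested genes that edgeR called in the mean of both priming comparisons, in which 16.8% of all 17123 genes rose and 14% fell, with a median of 0.0059 on the log2 scale (15.3% and 18% after removal of the GC trend). Genes that passed the filter on low counts through the primed libraries alone (TJP3, PPL, TFAP2C, AP1M2 and TWIST1) or over both kinds together (OVOL2 and CLDN18) are not in these counts and medians, a step added after the values had been seen. Of 13 tight junction and polarity genes, 3 rose and 0 fell, beside the 16.8% and 14% of all genes, with a median log2 fold change of 0.15 (4 and 0 after removal of the GC trend, median 0.20). CGN, which encodes the tight junction plaque protein cingulin, rose from 1.94 ± 0.792 to 6.63 ± 1.4 CPM (SD, n = 6, log2 1.76 ± 0.218 SE, edgeR adjusted p = 5.91e-07). F11R, the junctional adhesion molecule A, rose by 0.97 ± 0.221, and LLGL2, a polarity protein, by 0.39 ± 0.106, the latter 0.20 and not called after removal of the GC trend. Of 11 adherens junction and desmosome genes, 8 rose and 1 fell, again beside 16.8% and 14%, median 0.24 (6 and 2 after removal of the GC trend, beside 15.3% and 18%, median 0.19). JUP, or plakoglobin, shared by both junction types, rose from 21.7 ± 1.32 to 39.5 ± 3 CPM (log2 0.86 ± 0.0721 SE, edgeR adjusted p = 9.31e-10), and DSP, the desmosomal linker to keratins, rose by 0.43 ± 0.0862. PKP3, a desmosomal plakophilin, fell by 0.30 on the log2 scale.

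Of 6 other keratins, 2 rose and 1 fell, beside 16.8% and 14% of all genes, median 0.35 (2 and 1 after removal of the GC trend, median 0.21). KRT7, a keratin of ducts and simple epithelia, rose from 0.562 ± 0.439 to 2 ± 0.676 CPM (log2 1.87 ± 0.401 SE, edgeR adjusted p = 0.00069), and KRT80 fell by 0.25 on the log2 scale. Of 10 other epithelial transcription and splicing factors, 1 rose and 3 fell, median -0.15 (1 and 4 after removal of the GC trend, median -0.24). ESRP2, the paralog of ESRP1, rose from 0.885 ± 0.475 to 2.17 ± 0.409 CPM (log2 1.29 ± 0.316 SE, edgeR adjusted p = 0.00236), whereas ESRP1 stayed at 0 counts in 11 libraries. GRHL1, the relative of GRHL2, had 5.7 ± 0.947 CPM in unprimed and 5.84 ± 1.02 CPM in primed libraries (log2 0.04 ± 0.154 SE, edgeR adjusted p = 0.887), and OVOL2, the relative of OVOL1, had -1.17 ± 0.814 (edgeR adjusted p = 0.302). TFAP2C, an AP-2 factor, went from 0 counts in each unprimed library to 8 to 15 counts in each primed one. Its relative TFAP2A fell by 0.42 on the log2 scale (from 157 ± 6.3 to 117 ± 6.38 CPM), TP63, a factor of basal epithelia, by 0.50, and RBM47, an RNA-binding protein, by 0.31.

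Of 6 epithelial surface proteins and proteases, 2 rose and 0 fell, beside 16.8% and 14% of all genes, median 0.21 (1 and 1 after removal of the GC trend, beside 15.3% and 18%, median 0.11). ERBB3, a receptor tyrosine kinase, rose from 1.95 ± 0.619 to 4.95 ± 0.93 CPM (log2 1.34 ± 0.213 SE, edgeR adjusted p = 2.19e-05). Of 5 mesenchymal factors and markers, 1 rose and 3 fell, median -0.18 (0 and 1 after removal of the GC trend, median -0.12). VIM, the intermediate filament of mesenchymal cells, fell by 0.18 on the log2 scale (from 6264 ± 183 to 5511 ± 177 CPM, edgeR adjusted p = 7.4e-06), and ZEB1, a repressor of epithelial genes, fell by 0.19 (edgeR adjusted p = 0.038), with -0.12 and no call after removal of the GC trend (edgeR adjusted p = 0.105). The related repressors SNAI1 and SNAI2 went in opposite directions. SNAI1 rose by 0.46 ± 0.164 (edgeR adjusted p = 0.0315), from 3.91 ± 0.514 to 5.4 ± 1.05 CPM, and SNAI2 fell by 0.26 on the log2 scale (edgeR adjusted p = 0.0321), while after removal of the GC trend neither was called (0.34 and -0.21, edgeR adjusted p = 0.117 and 0.0658). TWIST1, a mesenchymal factor, had 0 counts in 5 unprimed libraries and 8 in the other, and 159 to 235 counts in each primed library.

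**Figure D5:**
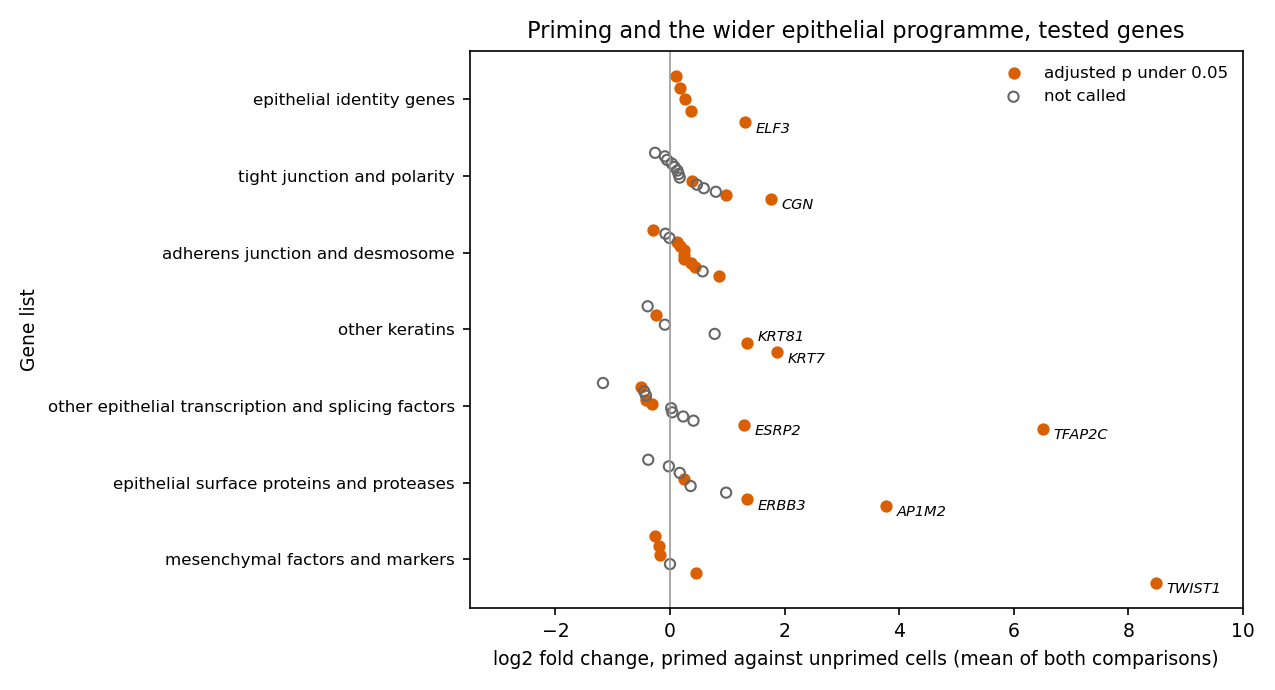
Log2 fold change of each tested gene of the epithelial identity genes, 5 further epithelial lists and the mesenchymal list, as the mean of both priming comparisons, with genes called at an edgeR adjusted p under 0.05 filled. TFAP2C and TWIST1, with 0 or nearly 0 counts in unprimed libraries, have fitted values that depend on the prior count, and most other genes lie between -0.5 and 2. The figure keeps the genes that the counts in the text leave out (TJP3, PPL, TFAP2C, AP1M2, TWIST1, OVOL2 and CLDN18). Their filled points are not in those counts, since the filter was not passed through unprimed libraries alone.

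Over the 12 libraries, the genes whose log2 CPM was most like that of each tested gene were listed by Pearson correlation, as a description, since the points share depth and GC trends. CLDN4 and KRT19 were close to each other (r = 0.949, rank 1 for CLDN4 and rank 2 for KRT19 of 17122 genes). Nearest to KRT19 was PYGB (0.964), and next to CLDN4 after KRT19 came TMCO4 (0.942) and IQCN (0.934). KRT8 was nearest to R3HDM4 (0.971), CDK10 (0.957) and NOP53 (0.952), and KRT18 to S100A6 (0.965), FAM166A (0.964) and TMSB10 (0.962). The partners KRT8 and KRT18 reached 0.834 with each other. ELF3 was nearest to NMB (0.960), RNF224 (0.953) and S100A13 (0.944).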

How the data were processed

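RNA-seq was performed on total RNA of 12 samples of MiaPaca2 cells (150 bp paired-end reads). Per the study's methods and the submitters' processing notes, the authors used Trim Galore for trimming, HISAT2 2.2.1 for alignment to GRCh38 and HTSeq for counting. The deposited tables hold raw whole-number counts, not normalized. Strand setting and annotation release are not given in the sources used here. Symbols came from GENCODE release 44, which held 52181 of 63677 identifiers and 99.05% of the counts. Rows that name no gene held 0 counts.

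Differential expression was tested with edgeR 4.0.16 under R 4.3.3 (filterByExpr on the 4 groups, TMM, glmQLFit and glmQLFTest in 1 fit of 12 libraries, common dispersion 0.0101). P-values were adjusted over 17123 genes by the Benjamini-Hochberg method. Genes below the filter were tested by exact permutation, with p-values given unadjusted unless stated. The likelihood ratio test, DESeq2 1.42.0, other scalings and filters, the replicate block, the 2 groups alone, each library left out and removal of lowess GC trends were alternatives. Of the other lists, at most the 6 called genes with the smallest p per list were named, plus CDH1, VIM, ZEB1 and the relatives of members. The script was tested on simulated data. The members and lists were chosen with earlier results of these data known. One ductal marker is not reported here. Pairs of replicates differed by chi-square of 3.88 to 16.6 per degree of freedom, so no library was counted as a repeat. A count of 0 allows up to 3 counts, which covers counting error only.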

Additional observations from a re-analysis of the deposited data

How the results depend on the processing

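ELF3 kept its call in the mean of both priming comparisons and in CPT+GTA+5-Aza against CPT under every alternative fit (21 and 22). CLDN4 kept its call in the mean under every alternative fit (21). By the study's thresholds ELF3 kept both calls, while CLDN4, at 1.29-fold in the mean, did not keep its call. Of 865 alternative values for single genes, 778 stayed on their side of the threshold, 69 lost and 17 gained it, and 1 reversed, KRT8 in the mean of both priming comparisons, at -0.03 after removal of the GC trend. Genes called upregulated in GTA+5-Aza against Control, 2 of 5, became 1 with RLE scaling, 4 with library size alone, 4 with no filter on low counts (CLDN7 and 3 of the 5), 1 with the replicate block, 4 with only the groups compared, 0 by the study's thresholds (fold over 1.5 and P under 0.05 without adjustment), 0 after removal of the GC trend, and 0 to 4 without 1 library. In CPT+GTA+5-Aza against CPT the 3 became 1 with only the groups compared, 1 by the study's thresholds, 1 after removal of the GC trend, and 1 to 4 without 1 library. Here and in the other comparisons, counts that changed by a factor of at most 1.5 are not listed, apart from the ranges without 1 library. RLE scaling, for example, lost KRT19 and upper-quartile scaling gained CLDN4 in CPT+GTA+5-Aza against CPT. In CPT+GTA+5-Aza against Control the 2 became 1 by the study's thresholds, 1 after removal of the GC trend, and 0 to 2 without 1 library. In the mean of both priming comparisons the 5 became 1 by the study's thresholds, 2 after removal of the GC trend, and 4 to 5 without 1 library. By the study's thresholds 1 gene, ELF3, was downregulated in CPT against Control and 1, ELF3, was upregulated in the interaction, where 0 were called otherwise. Apart from fewer libraries or groups, the cause was not tested. Same-numbered libraries did not deviate together (correlations of -0.0844 to 0.117, with the own number highest in 9 of 36 comparisons). These values show no pairing by number but cannot exclude it, since samples handled together need not deviate together. CLDN7 had no adjusted p from DESeq2 in the single priming comparisons and 0.000117 in their mean. Depth limits EPCAM, GRHL2, ESRP1, OVOL1 and CLDN7.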
